A study of Caenorhabditis elegans with 24 samples.

Results

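RNA polymerases I, II and III transcribe the nuclear genome of animals, and the genes for 10 of their subunits were followed in the intestine of Caenorhabditis elegans while one subunit, RPOA-2 of RNA polymerase I, was degraded. The 10 genes were taken from a list of names, chosen with earlier results of these data known. All were found among the 20392 genes of the table. They are rpoa-1, rpoa-2 and rpoa-12 of RNA polymerase I, rpac-19 and rpac-40, which polymerases I and III share, rpb-5 and rpb-6, which are common to all polymerases, ama-1 and rpb-2 of RNA polymerase II, and rpc-1 of RNA polymerase III. The question was whether loss of RPOA-2 was accompanied by a change in transcripts of the other Pol I subunits, of the shared subunits or of the Pol II and Pol III subunits. A further 12 subunit genes were recognised by their symbols and served for comparison.

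As background, each nuclear RNA polymerase is built around a pair of large catalytic subunits and a set of smaller ones. Pol I makes the large ribosomal RNA precursor in the nucleolus, Pol II makes messenger RNA, and Pol III makes transfer RNA, 5S ribosomal RNA and other short RNAs. Some small subunits are used by more than one enzyme, so that loss of one enzyme can in principle touch the supply of parts for the others, and the messenger RNA of every subunit, including those of Pol I and Pol III, is itself a Pol II product.

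Both genotypes carried ieSi57, a transgene on chromosome II in which the ubiquitous eft-3 promoter drives TIR1 fused to mRuby, with the unc-54 3'UTR and Cbr-unc-119(+) as rescue marker. TIR1 is a plant protein that, once bound to auxin, sends proteins with a degron tag to the proteasome. The control, called TIR1, had no tagged polymerase, and unc-119(ed3) is given in the control genotype alone. The Pol I-AID genotype carried qzIs15 on chromosome I, in which degron and GFP sequences were inserted at the start of the endogenous rpoa-2 gene, so that all RPOA-2 protein in the animal was a target in every tissue with TIR1 and not in the intestine alone.

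Fed animals were grown for 72 h from L1 larvae to day 1 of adulthood. Intestines were dissected then, before auxin (0 h, 0 mM), or after a further 12 or 24 h on 1 mM auxin. Changes over time within a strain therefore combine auxin, the transfer to new plates and age, whose shares were not tested. Each of the 6 groups had 4 independent biological replicates, each a pool of intestines, which gave 24 libraries. TIR1 and Pol I-AID each stand for a pair of strains of the same listed genotype. Replicate 1 used DCW143 (TIR1) and DCW180 (Pol I-AID), outcrossed 1 time, and the other replicates used DCW448 (TIR1) and DCW447 (Pol I-AID), outcrossed 3 times. Counts per library ran from 3.18 to 29.5 M (in units of 1000000 counts, with a median of 20.8 M), and 67.6% to 79.9% of them lay in the vitellogenin (yolk protein) genes, which left 1.03 to 9.01 M for all other genes. TIR1 0 h replicate 3 (3.18 M) and TIR1 24 h replicate 1 (4.68 M) were the shallowest.

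The dissection was checked with marker lists, summed per 1000000 counts outside the vitellogenin genes. Intestinal markers (10 genes, all detected in every group except TIR1 12 h, where 9 were) summed to 42800 to 70200. Of the 9 intestinal markers tested, 2 passed downward in Pol I-AID against TIR1 at 12 h, 2 at 24 h and 4 over the mean of both times. To pass means a Benjamini-Hochberg adjusted p under 0.05 in edgeR. None of the markers passed upward, and their median log2 difference was -0.15 at 12 h and -0.14 at 24 h. Of all genes, 5.39% passed in either direction at 12 h, 13.8% at 24 h and 17.3% over the mean. The shares of markers passing were larger, and were not tested against these. The sum over all 10 was higher on average in Pol I-AID, with 65500 ± 4270 against 57200 ± 9270 for TIR1 at 12 h and 67500 ± 1440 against 61400 ± 4740 at 24 h (SD, n = 4). This sum is weighted to the most counted marker, cpr-6, whose highest count in a library was 380806, beside 52137 for asp-1 and 107 for elt-2. Germline and oocyte markers, of which 9 to 13 of 15 were detected per group and syp-1 was at 0 in all 24 libraries, summed to 4.65 to 35.2 except in 1 Pol I-AID 0 h library at 322. In TIR1 libraries at 0 h body wall muscle markers reached 567 and hypodermal markers 1260 in single libraries, whereas at 12 and 24 h muscle markers stayed between 29.8 and 49.9 and hypodermal markers between 18.6 and 98.6 in both strains. At 24 h pharynx markers ran from 0 to 87.2 in TIR1 and from 0 to 3.03 in Pol I-AID. The part these other tissues play in the values below was not tested.

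The subunit genes were low in this tissue. Together the 10 genes received 53 to 1110 counts per library (median 570), or 14018 counts over all libraries, and ama-1 alone held 63.2% of these and rpb-2 18.3%. Each of the remaining 8 genes held under 5%, from 4.78% for rpoa-1 and for rpc-1 down to 0.428% for rpac-19. Levels are given as counts per 1000000 of the TMM-scaled library size (CPM), and since longer transcripts collect more reads, levels of different genes are compared only per kilobase of exon. Of the 211 member values above 0, 147 (69.7%) were even numbers, so that a count of 2 may be the 2 reads of a single fragment.

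On the scale of CPM per kilobase, averaged over the 24 libraries, the order of levels was led by the Pol II genes. The level of ama-1, the largest subunit of Pol II, was 3.1 ± 1.18 (SD), that of rpb-2, the second-largest subunit of Pol II, 1.32 ± 0.429, and that of rpb-6, a small subunit of all polymerases, 0.676 ± 0.389. Next came rpoa-12 (0.325 ± 0.354), rpc-1 (0.314 ± 0.163), rpb-5 (0.299 ± 0.276), rpac-40 (0.298 ± 0.21), rpoa-1 (0.247 ± 0.12), rpoa-2 (0.206 ± 0.126) and rpac-19 (0.18 ± 0.212). From rpoa-12 downward neighbouring genes differed by less than 1 SD of either, as did rpb-6 and rpoa-12. The SD here is the spread of single libraries over all groups, and levels of different genes were not tested against each other. No order is therefore claimed among the 7 genes from rpoa-12 downward, which hold all the Pol I and Pol III genes of the list. Of the comparison genes, rpc-2, the second-largest subunit of Pol III, stood at 1.89 ± 0.317 CPM per kilobase, between ama-1 and rpb-2.

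**Figure D1:**
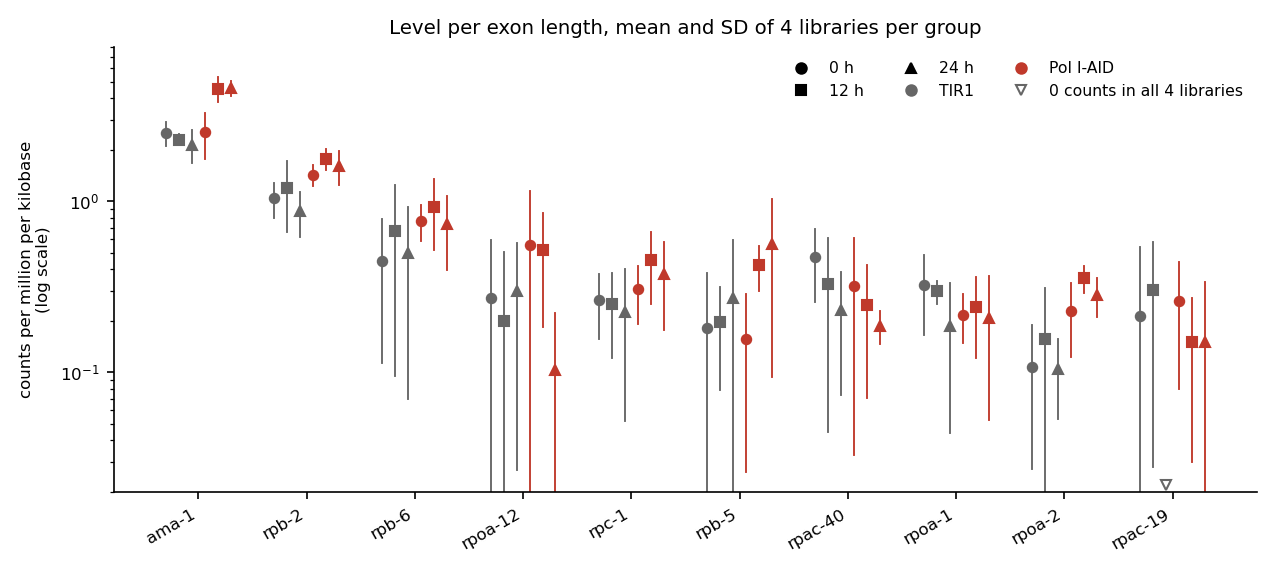
Levels of the 10 subunit genes in CPM per kilobase of exon on a log axis, ordered by their mean over all libraries; symbols are group means of 4 libraries, vertical lines are ± 1 SD cut at the lower edge of the axis, grey is TIR1 and red Pol I-AID. The Pol II genes ama-1 and rpb-2 stand highest, the last 7 genes lie within each other's spread, and rpac-19 had 0 counts in all TIR1 24 h libraries.

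Differences between strains were tested with edgeR on the counts, with one mean for each of the 6 groups. The low counts meant that 7 of the 10 genes passed the filter on low counts and were tested among 6903 genes, and that rpoa-12, rpac-19 and rpb-5 were not. Below, a gene is said to have passed at a Benjamini-Hochberg adjusted p under 0.05, and to have been called when the change was also at least 2-fold, the threshold of the study. In bulk tissue, fewer cells of a type and less RNA per cell cannot be told apart.

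Before auxin the strains were not distinguished by these genes. At 0 h 0 of the 7 tested genes passed, as against 0.217% of all genes tested, and 0 were called, as against 0.174%. The count was also 0 at an unadjusted p under 0.05 in edgeR and at an adjusted p under 0.05 in DESeq2. The log2 differences of Pol I-AID from TIR1 ran from -0.52 for rpoa-1 to 0.83 for rpoa-2, with a median of 0.12 beside 0.04 for all genes. For ama-1 the difference was 0.01 with a 95% interval from -0.38 to 0.40, whose upper bound is a 1.32-fold difference, whereas for rpac-40, with 179 counts in all, the interval ran from -2.02 to 1.16.

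On auxin, ama-1 was the member with the clearest change. It encodes the largest subunit of Pol II, whose long C-terminal repeat is phosphorylated during transcription and gathers RNA processing factors. At 12 h its level was 12.4, 13.8, 14.7 and 14.4 CPM in TIR1 replicates 1 to 4, and 31.6, 28.1, 29.3 and 20.9 CPM in Pol I-AID. At 24 h it was 10.2, 15.2, 10.8 and 15.3 CPM in TIR1 and 30.5, 25, 29.6 and 25.3 CPM in Pol I-AID. The strains did not overlap at either time, and the lowest Pol I-AID library stood at 20.9 against 14.7 CPM for the highest TIR1 library at 12 h. Before auxin they did overlap, at 13.4, 13.4, 15 and 18.5 CPM in TIR1 replicates 1 to 4. Pol I-AID replicates 1, 2 and 4 then stood at 21.7, 13.6 and 14.4 CPM. Pol I-AID replicate 3 was the lowest 0 h library of either strain, at 1.84 CPM per kilobase of exon. Pol I-AID replicate 1 at 0 h thus stood above the lowest Pol I-AID library at 12 h (20.9 CPM).

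In the edgeR fit ama-1 transcripts were 1.99-fold higher in Pol I-AID at 12 h (log2 0.99, 95% interval 0.61 to 1.38, adjusted p = 0.00167) and 2.12-fold higher at 24 h (log2 1.08, 0.69 to 1.47, adjusted p = 0.000289). The 12 h value thus passed and fell just short of the 2-fold threshold, and the 24 h value was called. Without TIR1 24 h replicate 1 or 3 the 24 h value passed (1.00 and 0.97, adjusted p = 0.00171 and 0.00334) and was just under 2-fold, so that it was not called. Over the mean of both times the difference was 1.04 on the log2 scale (adjusted p = 3.33e-06) and was called. It passed there in all 29 alternatives, at 0.88 to 1.17. It fell below 2-fold, and was not called, with the exon length trend removed, without the 2 shallow libraries and without replicate 1 or 3. The same held without TIR1 24 h replicate 1 or 3 and without Pol I-AID 12 h replicate 1. The difference was larger than before auxin, by 0.98 at 12 h (0.44 to 1.53, adjusted p = 0.0388) and by 1.07 at 24 h (0.52 to 1.62, adjusted p = 0.0125). The change of the difference at 12 h no longer passed in 18 of 29 alternative analyses. It was lost without 12 of the 16 single libraries of these 4 groups, namely TIR1 0 h replicates 1, 3 and 4, TIR1 12 h replicates 1 to 3, Pol I-AID 0 h replicates 2 to 4 and Pol I-AID 12 h replicates 1 to 3, with log2 values of 0.86 to 1.04 and adjusted p of 0.0516 to 0.103. At 24 h the change no longer passed in 1 of 29, without replicate 3 (log2 0.78, adjusted p = 0.21). The strain difference itself passed in all 21 alternatives at 12 h and in all 21 at 24 h, with values from 0.88 to 1.14 and from 0.86 to 1.21.

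Followed over time, ama-1 did not pass in TIR1, where the log2 change from 0 h was -0.12 at 12 h (-0.51 to 0.26) and -0.21 at 24 h (-0.60 to 0.19). In Pol I-AID it rose by 0.86 at 12 h (0.47 to 1.24, adjusted p = 0.00168) and by 0.86 at 24 h (0.48 to 1.25, adjusted p = 0.00081). The rise was thus in place at 12 h and its size was alike at both times. Within the libraries of the strains outcrossed 3 times, that is without replicate 1, the strain difference of ama-1 was -0.25 at 0 h, 0.88 at 12 h (adjusted p = 0.0128) and 0.94 at 24 h (adjusted p = 0.00368). Replicate 1 gave 1 library per group, so the batch of strains outcrossed 1 time allowed no test of its own.

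**Figure D2:**
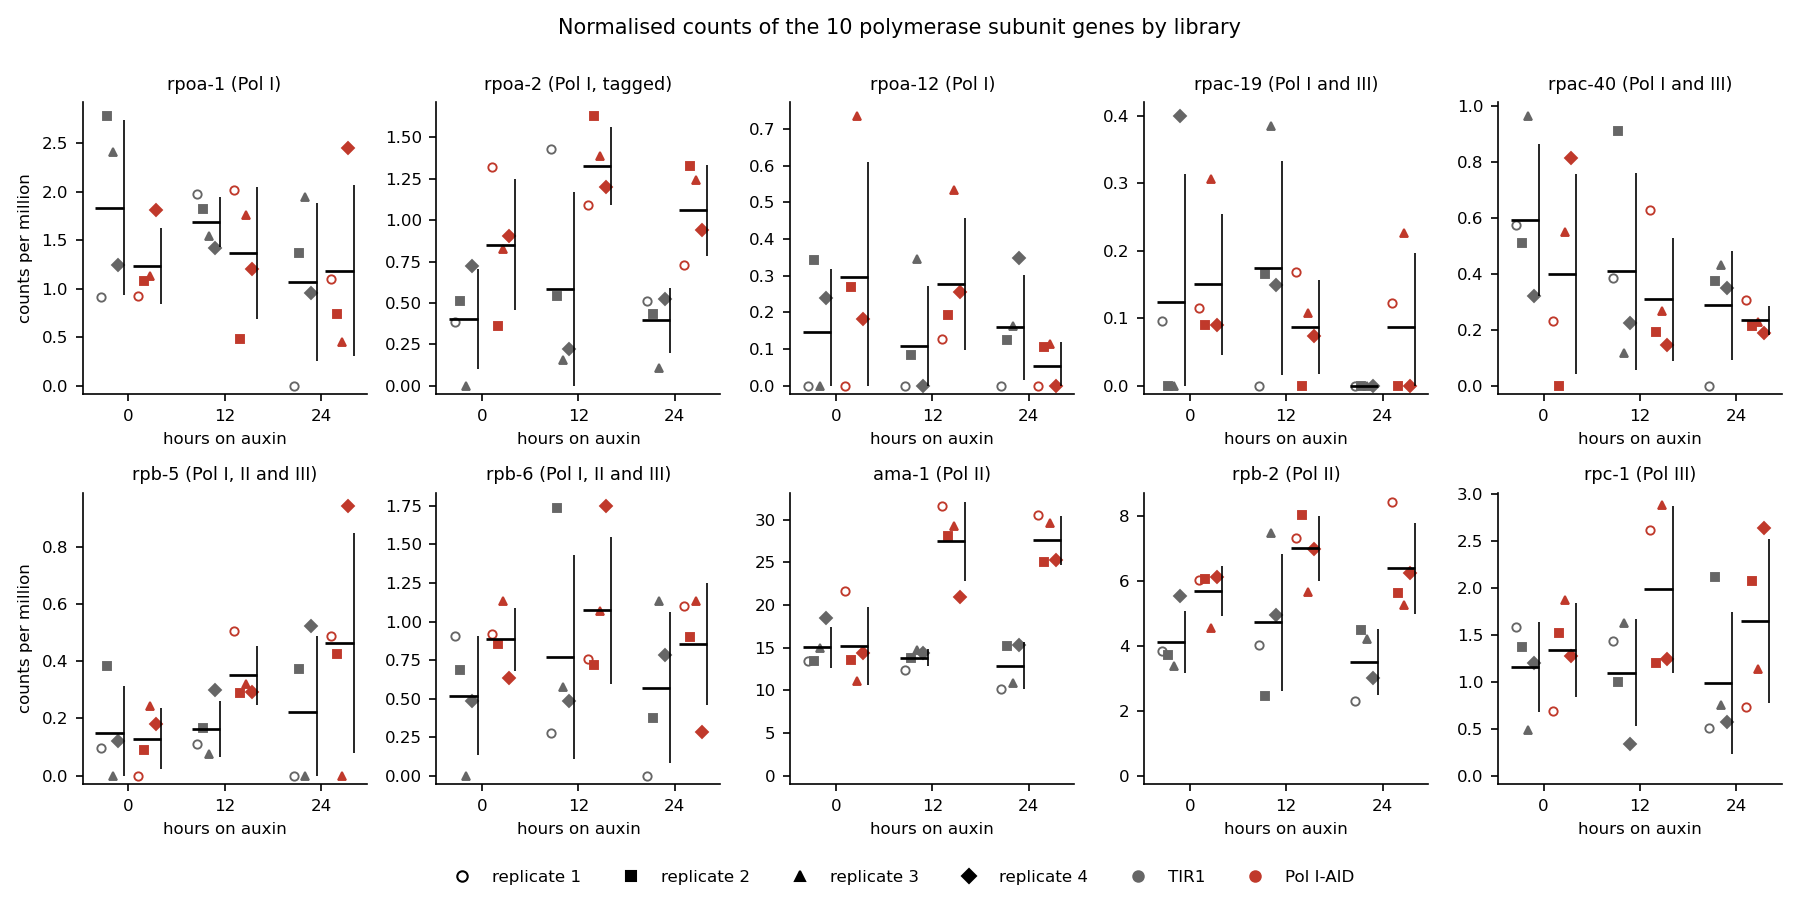
Levels in CPM of the 10 subunit genes in each of the 24 libraries (linear axes, each panel on its own scale); symbols mark the replicate, open circles being replicate 1, horizontal bars the mean and vertical lines ± 1 SD of 4 libraries, cut at 0. The ama-1 libraries of Pol I-AID lie between 20.9 and 31.6 CPM at 12 and 24 h, above all TIR1 libraries, while for most other genes the strains overlap.

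The other Pol II gene of the list, rpb-2, encodes the second-largest subunit, which forms one side of the catalytic cleft. At 24 h its level was 2.29, 4.47, 4.2 and 3.01 CPM in TIR1 and 8.41, 5.62, 5.26 and 6.23 CPM in Pol I-AID, and the strains did not overlap. At 12 h they did, with 4.01, 2.45, 7.47 and 4.93 CPM in TIR1 and 7.31, 8.03, 5.66 and 6.97 CPM in Pol I-AID. Its strain difference was 0.57 at 12 h (standard error 0.26, adjusted p = 0.275; 0.90, adjusted p = 0.047, without TIR1 12 h replicate 3) and 0.82 at 24 h (0.26 to 1.38, adjusted p = 0.0446), and 0.69 over the mean of both times (0.31 to 1.08, adjusted p = 0.0102). The gene thus passed at 24 h and over the mean, below 2-fold, and was not called.

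Unlike that of ama-1, the rpb-2 difference was not shown to appear with auxin. At 0 h rpb-2 was already 0.44 higher in Pol I-AID on the log2 scale (-0.11 to 0.99, adjusted p = 0.676). The change of the difference from 0 h was 0.13 at 12 h (-0.64 to 0.89) and 0.38 at 24 h (-0.40 to 1.17), and neither passed. The 24 h result was lost in 13 of 21 alternatives, including a value of 0.54 without replicate 1 (adjusted p = 0.322). Among single libraries it was lost without TIR1 24 h replicate 1, 3 or 4 (0.71, 0.88 and 0.73, adjusted p = 0.105, 0.0676 and 0.137) and without Pol I-AID 24 h replicate 1, 2 or 4 (0.66, 0.88 and 0.83, adjusted p = 0.157, 0.0605 and 0.0724). Over the mean of both times the result was lost in 2 of 29 alternatives, without replicate 1 (0.51, adjusted p = 0.149) and without replicate 4 (0.66, adjusted p = 0.0608).

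The transcript of the depleted protein itself, rpoa-2, encodes the second-largest subunit of Pol I. The degron acts on the protein, so its messenger RNA is no check of the depletion or of the labels. At 24 h it had 2, 7, 2 and 12 counts in TIR1 (0.509, 0.435, 0.108 and 0.523 CPM) and 12, 25, 22 and 10 counts in Pol I-AID (0.731, 1.33, 1.24 and 0.943 CPM). At 12 h it had 1.43, 0.539, 0.154 and 0.224 CPM in TIR1 and 1.09, 1.63, 1.39 and 1.2 CPM in Pol I-AID. The strains did not overlap at 24 h, and at 12 h TIR1 replicate 1, with 26 counts, lay among the Pol I-AID libraries.

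The strain difference of rpoa-2 was 1.22 at 12 h (0.05 to 2.39, adjusted p = 0.285) and 1.49 at 24 h (0.19 to 2.79, adjusted p = 0.127) on the log2 scale, and did not pass at either time. Over the mean of both times, which uses 8 libraries of each strain, it was 1.35 or 2.55-fold (log2 interval 0.48 to 2.23, adjusted p = 0.0268) and was called. This call was lost in 8 of 29 alternatives, among them those without replicate 2 (1.26, adjusted p = 0.166), replicate 3 (0.94, adjusted p = 0.188) or replicate 4 (1.41, adjusted p = 0.0804). Among single libraries it was lost without TIR1 12 h replicate 3 or 4 (1.18 and 1.22, adjusted p = 0.0579 and 0.0524), TIR1 24 h replicate 3 (1.16, 0.0706) and replicate 2 of Pol I-AID at 12 or 24 h (1.28 and 1.29, adjusted p = 0.0551 and 0.0556). Without TIR1 12 h replicate 1 alone, the 12 h difference rose to 2.10 and was called (adjusted p = 0.0356). The difference was 0.83 before auxin (-0.39 to 2.05), and it was not shown to change with auxin, by 0.39 at 12 h (standard error 0.82) and 0.65 at 24 h (-1.12 to 2.43). The inserted tag is part of the rpoa-2 transcript in Pol I-AID and not in TIR1, and whether it alters the counting of this gene was not tested.

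The partner of RPOA-2 in the enzyme, the largest Pol I subunit, is encoded by rpoa-1, which was not tested against rpoa-2. At 24 h rpoa-1 had 0, 1.37, 1.94 and 0.958 CPM in TIR1 and 1.1, 0.742, 0.452 and 2.45 CPM in Pol I-AID, where the 0 belongs to the library of 4.68 M counts. The strains overlapped at every time. The log2 difference was -0.30 at 12 h (-1.33 to 0.73) and -0.08 at 24 h (-1.18 to 1.03), and none of the comparisons passed. As fold changes, the bounds of the 24 h interval were 0.441 and 2.05, so that a change of 2-fold was not excluded by these counts.

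The remaining Pol I subunit of the list, rpoa-12, a small subunit that in yeast takes part in RNA cleavage, had 100 counts in all 24 libraries and was at 0 in 8 of them. At 12 h it had 0, 2, 9 and 0 counts in TIR1 against 3, 4, 10 and 7 in Pol I-AID. The TIR1 libraries at 24 h had 0, 2, 3 and 8 counts and the Pol I-AID libraries 0, 2, 2 and 0. No direction could be read from these counts, since 3 counts correspond to 0.0919 to 0.764 CPM in these libraries and 10 libraries exceeded that floor of 3 counts.

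The subunits shared by Pol I and Pol III form a small assembly platform, with rpac-40 and rpac-19 as its members. At 24 h rpac-40 had 0, 0.373, 0.431 and 0.348 CPM in TIR1 and 0.305, 0.212, 0.226 and 0.189 CPM in Pol I-AID. The strains overlapped through the 0 alone, which belongs to the library of 4.68 M counts, where 3 counts are 0.764 CPM. The difference of rpac-40 was -0.39 at 12 h (-1.96 to 1.18, adjusted p = 0.911) and -0.49 at 24 h (-2.21 to 1.24, adjusted p = 0.776), intervals wide enough to hold a change of more than 2-fold in each direction. With 60 counts in all, rpac-19 was the scarcest member. It had 0, 4, 10 and 4 counts in TIR1 at 12 h and 4, 0, 2 and 2 in Pol I-AID. At 24 h all 4 TIR1 libraries were at 0, which allows levels of up to 0.131 to 0.764 CPM at 3 counts per library, and the Pol I-AID libraries had 2, 0, 4 and 0 counts, so that no fold is given.

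Of the subunits common to all 3 polymerases, rpb-6 was tested and rpb-5 was not. At 24 h rpb-6 had 0, 0.373, 1.13 and 0.784 CPM in TIR1 and 1.1, 0.901, 1.13 and 0.283 CPM in Pol I-AID, where the 0 belongs to the library of 4.68 M counts. Its differences of 0.48 at 12 h (-0.71 to 1.66, adjusted p = 0.819) and 0.40 at 24 h (-0.87 to 1.67, adjusted p = 0.746) did not pass. For rpb-5, with 120 counts in all, the Pol I-AID libraries held 12, 6, 6 and 8 counts at 12 h against 2, 4, 2 and 8 in TIR1, and 8, 8, 0 and 10 at 24 h against 0, 6, 0 and 12. The strains overlapped in CPM at 24 h as at 12 h, and in a fit with no count filter the difference was 1.07 (-0.91 to 3.05) at 12 h and 0.79 (-1.24 to 2.81) at 24 h.

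Pol III was represented by rpc-1, its largest subunit. At 12 h rpc-1 had 1.43, 0.995, 1.62 and 0.336 CPM in TIR1 and 2.61, 1.2, 2.88 and 1.24 CPM in Pol I-AID, and at 24 h 0.509, 2.11, 0.755 and 0.566 CPM in TIR1 and 0.731, 2.07, 1.13 and 2.64 CPM in Pol I-AID. The strains overlapped at both times. The difference was 0.86 at 12 h (-0.15 to 1.86, adjusted p = 0.435), 0.64 at 24 h (-0.43 to 1.72, adjusted p = 0.476) and 0.75 over the mean (0.02 to 1.49, adjusted p = 0.166), and none passed. TIR1 24 h replicate 2 was far above the other 3 libraries of its group, and without it the difference over the mean was 2.15-fold with an adjusted p of 0.0395. An exon of rpc-1 shares 22 bases with an exon of maph-9 on the opposite strand in the WBcel235 annotation, and the other 9 genes share none with any gene.

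**Figure D3:**
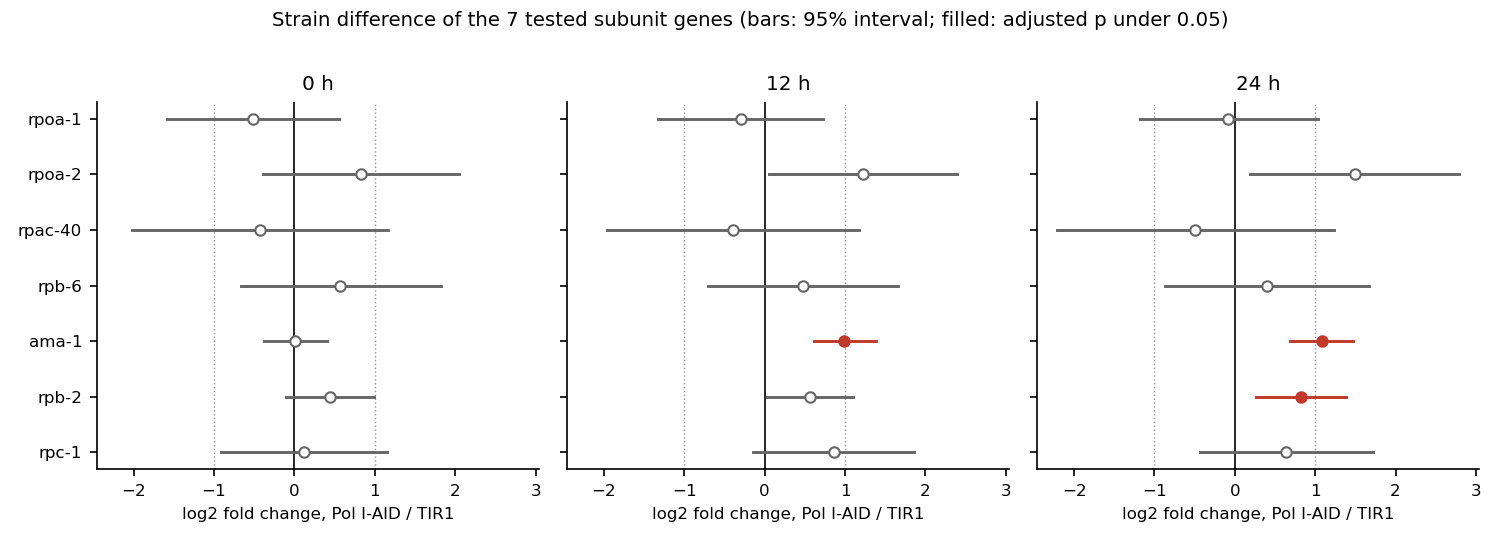
Log2 fold change of Pol I-AID over TIR1 for the 7 tested subunit genes at 0, 12 and 24 h on auxin; points are the edgeR estimates, bars their 95% intervals, filled red points have an adjusted p under 0.05, and dotted lines mark 2-fold. At 0 h all intervals include 0, at 12 h ama-1 is filled, and at 24 h ama-1 (1.08) and rpb-2 (0.82) are.

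Counted over the list, 1 of the 7 tested genes passed at 12 h (ama-1) and 0 were called, where 5.39% of all genes passed and 2.46% were called. At 24 h 2 passed (ama-1 and rpb-2) and 1 was called, where 13.8% of all genes passed and 7.71% were called, and over the mean of both times 3 passed (with rpoa-2) and 2 were called (ama-1 and rpoa-2), beside 17.3% and 5.91%. With 7 genes, these counts do not set the list apart from the background, and no member passed in the downward direction. The median log2 difference of the 7 genes was 0.57 at 12 h, 0.64 at 24 h and 0.69 over the mean, beside -0.01, 0.00 and -0.02 for all genes, and 5 of 7 were positive each time, beside 49.3%, 49.9% and 48.4% of all genes. Before auxin, at 0 h, 5 of 7 were already positive, beside 54.1% of all genes, with a median of 0.12. For the change of the strain difference, 1 member passed from 0 to 12 h and 0 were called (2.94% and 2.07% of all genes), and 1 passed and was called from 0 to 24 h (7.66% and 5.88%). Within strains 0 of 7 passed in TIR1 at 12 or 24 h (4.65% and 16.3% of all genes) and 1 of 7, ama-1, in Pol I-AID at 12 and at 24 h (14.3% and 27.8%). In TIR1 an unadjusted p under 0.05 in edgeR and an adjusted p under 0.05 in DESeq2 were likewise reached by 0 members, and in every one of these comparisons DESeq2 passed the same members as edgeR.

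All 5 large subunits of the list, rpoa-1, rpoa-2, ama-1, rpb-2 and rpc-1, fell in the last of 10 equal classes of the tested genes by exon length (3547 to 56600 bases). This class had a median log2 difference between the strains of 0.05 at 12 h and 0.15 at 24 h, and the class of the shortest genes (227 to 741 bases), with no tested member, of 0.13 and -0.64. When a smooth trend on exon length was removed from the counts, the strain difference of ama-1 at 24 h was 0.86, still past the threshold on adjusted p and no longer 2-fold, and that of rpb-2 was 0.65 (adjusted p = 0.0938). The difference of ama-1 was above that of 93.9% of all tested genes at 12 h and of 91.6% at 24 h, and the fitted differences of rpoa-2 above 95.8% and 95.7%.

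Of the 12 further subunit genes, 6 were tested, namely rpb-3, rpb-7, rpb-8, rpb-9, rpc-2 and rpoa-49, and 0 passed in edgeR in any comparison of the strains or of times within a strain, with 0 at 12 h and 1 at 24 h at an unadjusted p under 0.05. Over the mean of both times 1 of them was lower at an unadjusted p under 0.05. Of all genes 5.39% passed at 12 h and 13.8% at 24 h. The median log2 difference of these 6 genes was -0.12 at 12 h and -0.53 at 24 h, beside -0.01 and 0.00 for all genes. Of the 6, rpb-7, rpb-8 and rpb-9 fell in the class of the shortest genes, whose median was 0.13 at 12 h and -0.64 at 24 h. The nearest to the threshold was rpc-2, the partner of RPC-1 in Pol III, which was chosen for mention after its values were seen. It was 0.50 higher in Pol I-AID at 24 h (0.14 to 0.86, adjusted p = 0.0585) with no overlap of the strains, and it passed at 24 h in DESeq2. Its difference was -0.11 at 12 h (-0.46 to 0.24). At 12 h the interval of this well-counted Pol III gene (20 to 252 counts per library) thus did not reach the size of the ama-1 change, although the ama-1 and rpc-2 differences were not tested against each other.

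Genes for the factors that work with these enzymes were taken from lists of transcription factors by polymerase. These lists too were chosen with earlier results of these data known. Among 15 genes listed as factors of Pol I and Pol III, which include tbp-1, mafr-1 and the snpc genes, 9 were tested. In edgeR 0 passed at 12 or 24 h (1 each at an unadjusted p under 0.05, and 1, tif-1A, in DESeq2 at 12 h), and 1 passed upward over the mean of both times. Among 32 general initiation factor genes of Pol II, 22 were tested, of which 1 passed upward at 12 h and 2 at 24 h, and 0 downward in edgeR or DESeq2 (0 and 1 at an unadjusted p under 0.05). Among 22 elongation factor genes and kinases or phosphatases of the Pol II repeat, 20 were tested, with 0 passing upward at 12 h (1 at an unadjusted p under 0.05, 0 in DESeq2), 1 at 24 h, and 0 downward at either time in edgeR or DESeq2, also at an unadjusted p under 0.05. The medians of these lists were 0.17, 0.16 and 0.10 at 12 h and 0.33, 0.23 and 0.15 at 24 h, beside -0.01 and 0.00 for all genes. Of all genes 5.39% passed at 12 h and 13.8% at 24 h, so that the counts passing set none of the lists apart.

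The clearest of these was xpb-1, a DNA helicase of the Pol II initiation factor TFIIH that also serves in DNA repair. Its level was 11.6 ± 1.79 CPM in TIR1 and 19 ± 1.11 CPM in Pol I-AID at 12 h, and 10.6 ± 1.89 and 21.8 ± 3.36 CPM at 24 h (SD, n = 4). The log2 difference was 0.71 at 12 h (standard error 0.19, adjusted p = 0.0258) and 1.02 at 24 h (standard error 0.19, adjusted p = 0.000649), and it passed in all 21 alternatives at 24 h, at 0.83 to 1.11. The strain difference was 0.08 at 0 h (-0.32 to 0.47). The change of the difference passed from 0 to 24 h and not from 0 to 12 h, and xpb-1 was not tested against ama-1.

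A pair of scarce factor genes was also called. At 24 h ttb-1, which encodes the initiation factor TFIIB, was at 0.0487 ± 0.0569 CPM in TIR1 (0 to 2 counts) and 0.554 ± 0.509 CPM in Pol I-AID (0 to 13 counts), with a fitted log2 difference of 2.99 (adjusted p = 0.0294), and the call was lost in 10 of 19 alternatives. Leaving out any single TIR1 24 h library, or Pol I-AID 24 h replicate 3 or 4, sufficed (2.32 to 3.43, adjusted p = 0.0535 to 0.126). The ttb-1 difference was -1.15 at 0 h (-2.70 to 0.41) and -0.23 at 12 h (-1.75 to 1.28), and in TIR1 the gene fell from 0.472 ± 0.169 CPM at 0 h to its 24 h level, a change that passed. Over the mean of both times taf-2, a subunit of the promoter-binding factor TFIID, had a fitted difference of 2.62 (adjusted p = 0.0315), with 0 to 10 counts per TIR1 library and 0 to 20 per Pol I-AID library, and it was lost in 12 of 28. Among single libraries it was lost without TIR1 12 h replicate 1, 2 or 3, TIR1 24 h replicate 3 or 4, Pol I-AID 12 h replicate 1 and Pol I-AID 24 h replicate 2 or 3 (2.29 to 2.51, adjusted p = 0.0549 to 0.0905). The taf-2 difference was 0.75 at 0 h (-1.26 to 2.76), 1.96 at 12 h (adjusted p = 0.383) and 3.28 at 24 h (adjusted p = 0.109). It passed at none of these times. At 0, 12 and 24 h the mean level of taf-2 was 0.461, 0.405 and 0.365 CPM in Pol I-AID. In TIR1 it was 0.232, 0.0933 and 0.0311 CPM. Chosen after their values were seen, emb-5, the worm SPT6 elongation factor, differed by 0.77 at 24 h (0.28 to 1.26, adjusted p = 0.0294), and tif-1A, a Pol I initiation factor, by 0.78 over the mean (0.29 to 1.27, adjusted p = 0.0217).

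For tif-1A the time course was larger than the strain difference. It went from 6.16 ± 2.3 CPM at 0 h to 20.6 ± 4.81 CPM at 24 h in TIR1 and from 4.44 ± 1.14 to 30.7 ± 4.32 CPM in Pol I-AID (SD, n = 4), so that it rose in both strains. The Pol I subunit genes rpoa-1 and rpoa-2 did not pass over time in either strain. They stood at means of only 1.4 and 0.771 CPM over the 24 libraries and were not tested against tif-1A.

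Over the 24 libraries, the log2 CPM of ama-1 went with that of rpb-2 (Pearson's r = 0.674) and of rpoa-2 (0.628), and rpoa-1 with that of rpac-40 (0.555), while rpoa-1 and rpoa-2 had an r of -0.24. Libraries share group, depth and scaling, so these values are descriptions. Among 1466 genes with a mean of at least 10 CPM, the 3 whose log2 CPM was most like that of ama-1 were M01G12.9 (0.909), Y82E9BL.18 (0.884) and ears-1 (0.878), the last encoding a glutamyl-tRNA synthetase. For rpoa-2 they were C28H8.3 (0.754), let-805 (0.746) and hpo-13 (0.716) among 1467 genes.

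**Figure D4:**
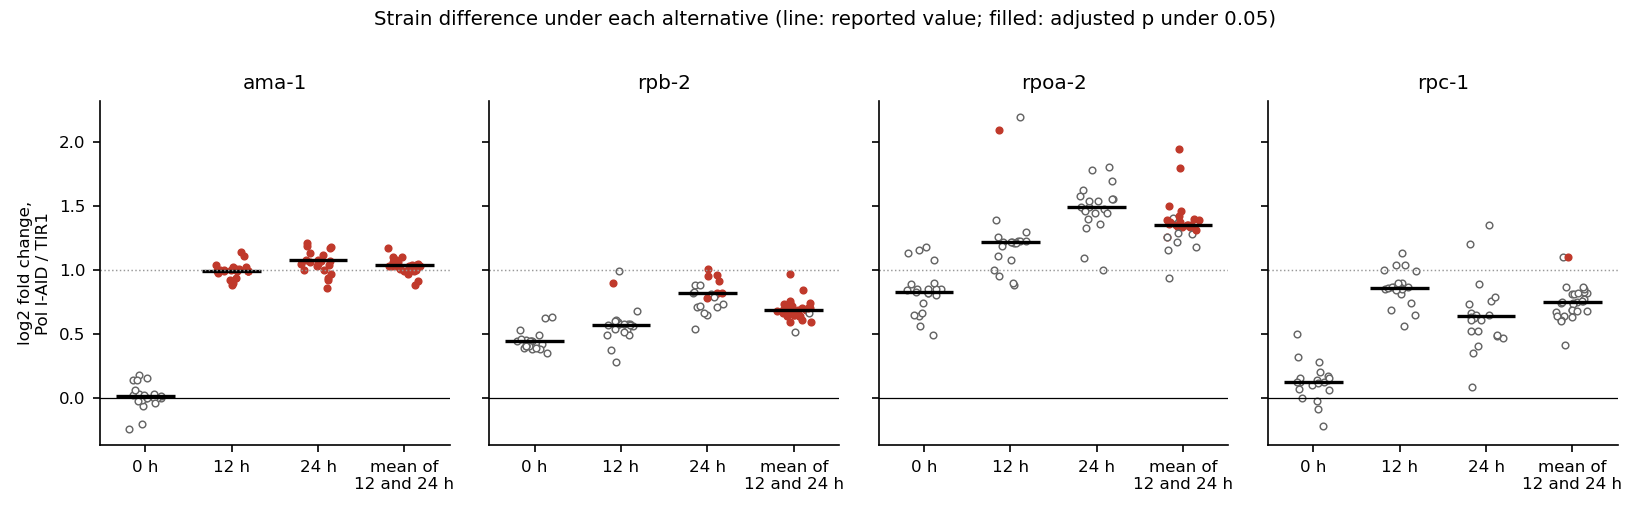
Log2 fold change of Pol I-AID over TIR1 for ama-1, rpb-2, rpoa-2 and rpc-1 under each alternative analysis; each point is 1 alternative (another normalization, filter, tool or set of libraries), filled red at an adjusted p under 0.05, and the black line is the reported value. The ama-1 points at 12 and 24 h are all filled and lie between 0.86 and 1.21, whereas those of rpb-2 at 24 h and of rpoa-2 over the mean are filled in part.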

How the data were processed

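Poly(A) RNA of dissected intestines was sequenced with a SMART-Seq kit. The authors trimmed adaptors, aligned reads to ce10 with spliced alignment, kept unique alignments and deposited raw read counts over the exons of WS220 genes in gene orientation, with no normalization or filter. Symbols came from a table of current names (94.1% of identifiers matched). The assembly at hand was another one, so no coordinates are given. The test of these counts used edgeR 4.0.16 under R 4.3.3 (quasi-likelihood F-test, TMM, filterByExpr, 6 group means, 24 libraries, no replicate block), with p-values adjusted over 6903 genes. DESeq2 1.42.0 and the other alternatives are described below. The scripts were tested on simulated data. Intervals cover 95%, and read counts without molecular identifiers are not independent molecules, so the floor of 3 counts covers counting error only. The 10 members and all lists were chosen with earlier results of these data known. Members were all named, further subunit genes where they passed, and factor genes where they were called between strains. Genes named outside this rule (rpc-2, emb-5 and tif-1A) were chosen after their values were seen. ama-1 and rpoa-2 were each matched with the 3 genes most like them in pattern, by Pearson's r of log2(CPM + 1).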

Additional observations from a re-analysis of the deposited data

Results flagged for a closer look

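In 4 of 59 groups of 4 libraries, 1 library stood far from the other 3 by Dixon's criterion, where chance gives about 1 in 20 groups. These were rpac-19 in Pol I-AID 0 h replicate 3 (0.306 CPM, 10 counts, the nearest library being at 0.115 CPM), rpb-2 in Pol I-AID 0 h replicate 3 (4.53 CPM, the nearest at 6.03 CPM), rpb-5 in Pol I-AID 12 h replicate 1 (0.504 CPM, 12 counts, the nearest at 0.32 CPM) and rpc-1 in TIR1 24 h replicate 2 (2.11 CPM, 34 counts, the nearest at 0.755 CPM). The germline marker sum of 322 (counts in 1000000 outside the vitellogenin genes) also belongs to 1 library of the Pol I-AID 0 h group.

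The strain difference of ama-1 changed between time points by the edgeR test of that change. It grew by 0.98 on the log2 scale from 0 to 12 h (adjusted p = 0.0388) and by 1.07 from 0 to 24 h (adjusted p = 0.0125). The 12 h result no longer passed in 18 of 29 alternative analyses, and the 24 h result in 1 of 29. Of the 7 tested subunit genes, ama-1 was the only one whose change passed at either time. For other genes, such as rpc-1 and rpoa-2, the interval was too wide to exclude a 2-fold change. It ran from -0.70 to 2.17 for rpc-1 at 12 h and from -1.12 to 2.43 for rpoa-2 at 24 h.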

How the results depend on the processing

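Across 244 alternative counts of called members, 193 were within 1.5 times the reported count and 51 were not. The 244 include 0 h and TIR1 over time, where 0 members were called and none of the 51 arose. The share of steady counts was thus lower in the remaining comparisons. Of 1111 alternative values for single genes 1044 kept their side of the threshold, 64 no longer passed and 3 newly passed. The sign changed in 63 of the 1044, none of which passed, and in 0 of those that passed. At 12 h the count of called members was 1, against 0 reported, with DESeq2's size factors, with the DESeq2 Wald test, without vitellogenin genes, with the compared groups only and on adjusted p alone. At 24 h it was 0, against 1, with the exon length trend removed and without the 2 shallow libraries (a choice made after seeing the data), and 2 on adjusted p alone. Over the mean of 12 and 24 h it was 1, against 2, with the length trend removed and without the 2 shallow libraries. The change from 0 to 12 h gave 1, against 0, on adjusted p alone, and that from 0 to 24 h gave 0, against 1, with the length trend removed and without the shallow libraries. In Pol I-AID from 0 to 12 h and from 0 to 24 h it was 1, against 0, on adjusted p alone. The cause of these shifts was not tested.

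Leaving out a replicate number or a single library gave 0 to 1 called members at 12 h, 0 to 2 at 24 h, 0 to 2 over the mean, 0 to 1 for each change of the difference and 0 to 1 within Pol I-AID from 0 to 12 h and from 0 to 24 h. For all genes, the count that passed and was 2-fold ranged from 0 to 151 at 0 h (12 reported), from 88 to 250 at 12 h (170), from 339 to 713 at 24 h (532), from 322 to 500 over the mean (408), from 37 to 289 for the change to 12 h (143) and from 216 to 698 for the change to 24 h (406), the highest without a count filter. On adjusted p alone the counts were 15, 372, 952, 1192, 203 and 529 in this order.

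Replicate numbers were not used as pairs in the reported test, although replicate 1 marks the strains outcrossed 1 time. Of 12 correlations between same-numbered libraries of the strains, 2 exceeded 0.1 (-0.05 to 0.173), and 10 of 24 libraries correlated best with their own number. With replicate as a block, the count of called members stayed 0 at 12 h, 1 at 24 h and 2 over the mean, ama-1 differed by 1.08 at 24 h (adjusted p = 0.000621) and rpb-2 no longer passed there (0.82, adjusted p = 0.0648), nor did taf-2 over the mean (2.62, adjusted p = 0.059). Depth limits the small subunits: rpoa-12, rpac-19 and rpb-5 had medians of 2.5, 2 and 5 counts per library.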
